A study of Mus musculus with 6 samples.

Results

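The J segments of the T cell receptor (TCR) α chain locus were examined in regulatory T cells (Treg) sorted from the spleen after a bone marrow graft. The members were all genes of the deposited count table whose symbol begins with Traj followed by a number, which gave 60 of 29199 genes. In the graft model, lethally irradiated B6 hosts were given a mixture of syngeneic marrow and marrow of B6D2F1 donors, which is partly matched to the host, along with naive CD4+ conventional T cells (Tconv) and Treg. The Treg had been grown in culture with IL-2, TGFβ and beads against CD3 and CD28 from spleen cells of B6 mice whose Foxp3 gene carries a Thy1.1 reporter, and were WT throughout. What was varied was the Tconv, taken from WT or from HP1α KO mice. The KO Tconv came from young adult mice with a floxed Hp1a allele crossed to CMV-cre, which acts in all tissues, on a mixed 129/Sv and C57BL/6 background, and the WT Tconv came from littermates. Treg were sorted 3 weeks after the graft as syngeneic Thy1.1+ CD4+ cells, from male mice, with 3 libraries of Treg with WT Tconv and 3 libraries of Treg with HP1α KO Tconv. Nothing in the sources used here says whether a library held 1 mouse or several pooled mice, so the p-values measure only the spread between these samples.

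A TCR α chain gene is assembled in the thymus, where the RAG recombinase joins a V segment (Trav) to a J segment (Traj), and splicing then links the joined VJ exon to the constant region (Trac). RAG recognises a signal beside each segment, which for a J segment is a nonamer, a spacer and a heptamer placed directly before the coding bases. The first joints on an allele use J segments near the V segments, later joints replace them with J segments farther downstream, and the J segments between a chosen J and Trac stay in the primary transcript as intron. Each J segment was shorter than the sequenced reads, and total RNA also holds unspliced transcripts, so a count on a segment can come from a joined segment or from intron, and these cannot be told apart here. Usage below therefore means the share of all Traj counts of a library that fell on a segment.

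The 60 segments lay on the plus strand of chromosome 14 at chr14:54392462-54456299 (GRCm39), a stretch of 63.8 kb, in the order Traj61 to Traj1, and Trac followed at chr14:54457978-54461663. The order by number was the order by position for every segment. The annotation called 51 of them genes and 9 pseudogenes (Traj61, Traj60, Traj55, Traj54, Traj51, Traj36, Traj14, Traj8 and Traj1), all within the J part of the locus between the δ locus and Trac. Segments were 29 to 72 bases long (median 61.0), and the longest exact run shared by any pair was 16 bases, between Traj53 and Traj45. The complete heptamer CACTGTG stood directly before 15 segments, 16 others matched 6 of its 7 letters, 14 matched 5 and 15 matched fewer. Within the 60 bases before a segment, on either strand, the heptamer letters were present for 22 of 60 segments (36.7%) and in 15 of 915 other windows of that length in the cluster (1.6%). Such a match is a description of the letters only, read from the annotated start of each segment. A GT splice donor directly followed the annotated end of 54 of the 60 segments, and of 50 of the 51 annotated genes.

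The 4 segments with the highest mean share, the 2 with the fewest counts, the segments of the invariant chains of NKT and MAIT cells and the segment with the smallest p-value are shown from 5′ to 3′ with the bases before them. Capitals mark, first, the 9 bases at the nonamer position and, after the 12 bases of the spacer, the 7 bases at the heptamer position, and the lower-case bases after them are the segment.
Traj60: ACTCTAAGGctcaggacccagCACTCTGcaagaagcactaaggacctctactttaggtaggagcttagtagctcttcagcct
Traj59: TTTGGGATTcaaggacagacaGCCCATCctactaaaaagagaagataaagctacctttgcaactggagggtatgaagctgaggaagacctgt
Traj39: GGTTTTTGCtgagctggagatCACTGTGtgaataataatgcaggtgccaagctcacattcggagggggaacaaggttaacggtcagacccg
Traj33: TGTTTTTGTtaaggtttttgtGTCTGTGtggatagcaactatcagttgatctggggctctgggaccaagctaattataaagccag
Traj18: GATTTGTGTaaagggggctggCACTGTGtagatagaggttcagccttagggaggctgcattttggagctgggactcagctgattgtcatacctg
Traj15: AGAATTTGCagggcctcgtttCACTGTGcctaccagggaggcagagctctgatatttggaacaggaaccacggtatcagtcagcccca
Traj12: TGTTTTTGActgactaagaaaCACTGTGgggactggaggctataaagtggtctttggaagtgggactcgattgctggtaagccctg
Traj11: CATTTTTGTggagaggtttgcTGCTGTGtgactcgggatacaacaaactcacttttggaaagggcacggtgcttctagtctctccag
Traj6: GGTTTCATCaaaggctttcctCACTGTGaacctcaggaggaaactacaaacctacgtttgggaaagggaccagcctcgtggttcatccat
The 4 windows of highest usage run from chr14:54443982-54444067 (Traj12), chr14:54450117-54450206 (Traj6), chr14:54441851-54441938 (Traj15) and chr14:54444568-54444654 (Traj11). Traj12, Traj6, Traj15, Traj18 and Traj39 carried the complete heptamer, whereas Traj11 and Traj33 matched 5 of its 7 letters. Traj60 and Traj59, with the fewest counts, lay at chr14:54393362-54393443 and chr14:54393562-54393653 and matched 6 and 2 letters. Traj39 lay at chr14:54417391-54417481, Traj33 at chr14:54422787-54422871 and Traj18 at chr14:54438206-54438299, with the bases before the segment included in each case.

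Libraries held 87421755 to 119078882 counts. WT Tconv replicate 3 stood apart, with a summed level of 6 red cell genes of 5501 CPM (counts scaled to the library total) against 370.2 to 688 in the other 5 libraries, and of 7 neutrophil genes of 1818 CPM against 40.96 to 225. In the same library Trdc, the δ chain constant region, had 730 counts against 142 to 211 elsewhere, and the part of these cells in the results was not tested. Foxp3, the factor that defines Treg, was at 158 to 254 CPM and Cd4 at 707 to 851 CPM over the 6 libraries, and the 6 Treg genes together were at 4031 to 4634 CPM with WT Tconv and 3970 to 4209 CPM with HP1α KO Tconv. The γδ T cell genes (4 of 7 in the table) summed to 10.35 CPM in WT Tconv replicate 3 and 5.26 to 8.03 CPM in the others, and the thymocyte genes (4 of 5) to 6.24 to 8.19 CPM with WT Tconv and 5.96 to 7.13 CPM with HP1α KO Tconv. The cytotoxic lineage genes Cd8a and Cd8b1 together were at 5.83 to 8.85 CPM. Cd8b1 gave most of that sum in every library, so the sum says little of Cd8a, which had few counts. In bulk samples, fewer cells of a type and less RNA per cell cannot be told apart.

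The Traj segments together held 13672 to 15160 counts per library, and 59 or 60 of the 60 segments had at least 1 count in each library. The summed Traj level was 152, 145 and 130 CPM (129.5 in replicate 3) in Treg with WT Tconv and 158, 137 and 156 CPM in Treg with HP1α KO Tconv, after scaling of the library sizes with TMM. The groups overlapped, with a mean of 142 ± 11.3 CPM for WT Tconv and of 150.3 ± 11.8 CPM for HP1α KO Tconv (SD, n = 3 each), which is 0.08 apart on the log2 scale. With 1 library left out, this difference ran from 0.02 to 0.15. The smallest value was without WT Tconv replicate 3, the lowest library, and the largest without HP1α KO Tconv replicate 2. Trac, which is shared by all α chains, had 80091 to 91245 counts, and there were 16.8 ± 0.869 Traj counts per 100 Trac counts (SD, n = 3) with WT Tconv and 16.9 ± 0.169 (SD, n = 3) with HP1α KO Tconv. The summed level of the J segments was thus similar to within the spread of the libraries on both scales.

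Usage rose steeply along the locus, from the V side to the constant region side. Shares ranged from 0.0423% for Traj60 (mean of 6 libraries) to 5.06% for Traj12. Across the 60 segments, mean share and locus rank had Pearson's r of 0.858 and Spearman's rho of 0.910, and rho was 0.894 to 0.912 in the single libraries. These values describe neighbouring segments measured in the same libraries and carry no test. Dividing counts by the annotated segment length left rho at 0.920, and among the 51 annotated genes rho was 0.910. Segment length itself had a rho of -0.22 with mean share.

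**Figure D1:**
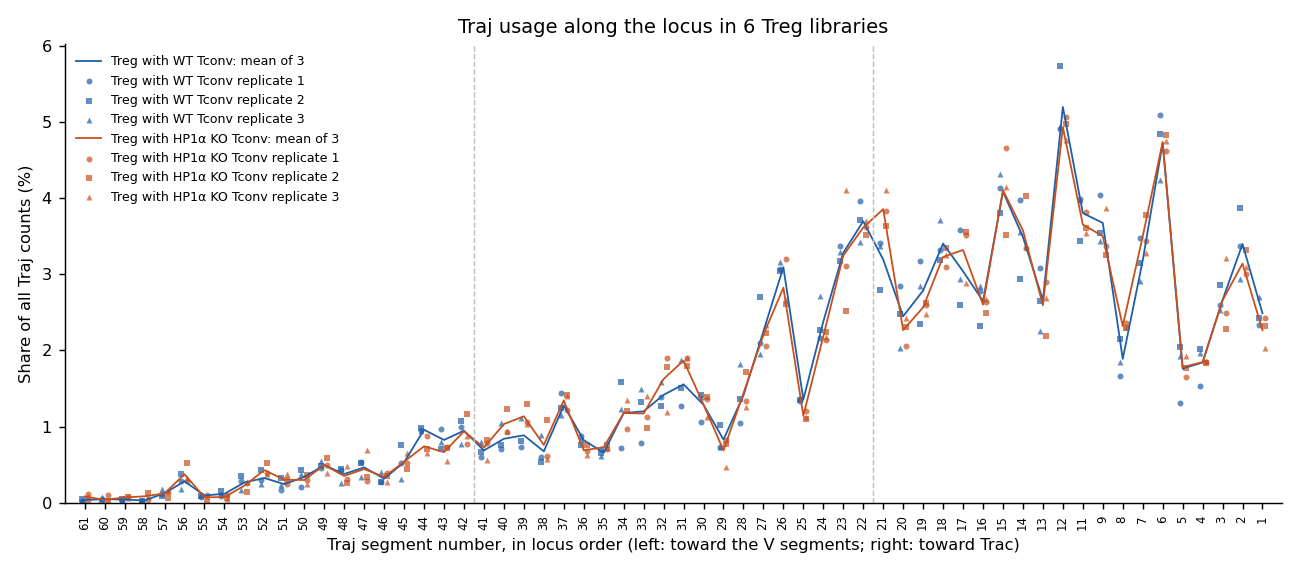
Share of all Traj counts (%, vertical axis) of each of the 60 Traj segments in locus order (horizontal axis). Points are the 6 libraries, lines are the group means (n = 3 each), and dashed lines part the 3 blocks of 20 segments. Shares rise from under 0.2% at Traj61 to Traj57 to 5.06% at Traj12, and the lines of both groups follow each other.

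Segments were divided by number into 3 blocks of 20. The V-proximal block (Traj61 to Traj42) held 6.77%, 7.63% and 6.17% of Traj counts with WT Tconv and 6.56%, 6.81% and 6.67% with HP1α KO Tconv. The middle block (Traj41 to Traj22) held 28.7%, 31.2% and 32.5% with WT Tconv and 30.7%, 31.2% and 30.7% with HP1α KO Tconv. The C-proximal block (Traj21 to Traj1), the nearest to Trac, held 64.6%, 61.2% and 61.3% with WT Tconv and 62.7%, 62.0% and 62.7% with HP1α KO Tconv. In each block the KO Tconv values lay inside the range of the WT Tconv values. The block means differed between groups by -0.178 percentage points for the V-proximal block (6.86 ± 0.733% against 6.68 ± 0.128%, SD, n = 3) and by 0.0725 points for the C-proximal block (62.4 ± 1.92% against 62.4 ± 0.425%, SD, n = 3). Both differences were smaller than the SD of the WT Tconv libraries, and no test was made of these sums. Single libraries moved both: with 1 library left out, the V-proximal difference ran from -0.520 points (without WT Tconv replicate 3) to 0.209 points (without WT Tconv replicate 2), and the C-proximal difference from -0.510 points (without WT Tconv replicate 2) to 1.18 points (without WT Tconv replicate 1), with -0.452 points without WT Tconv replicate 3.

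**Figure D2:**
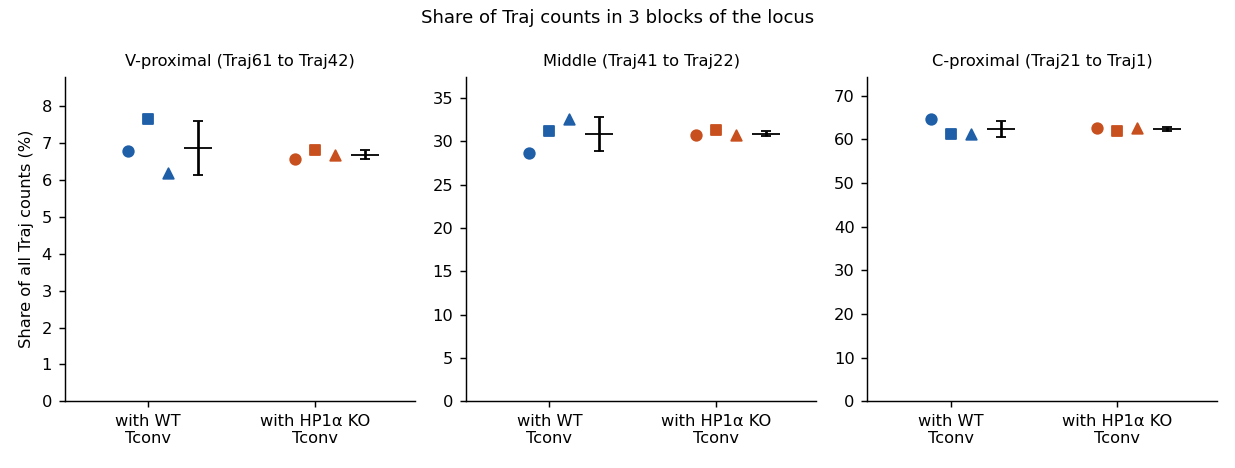
Share of all Traj counts (%, vertical axes from 0, with a different range in each panel) in the V-proximal, middle and C-proximal blocks of 20 segments. Each point is a library (circle, square and triangle are replicates 1, 2 and 3), and the bar beside them is the mean ± SD (n = 3). The HP1α KO Tconv libraries lie within the range of the WT Tconv libraries in all 3 panels.

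The rise was within the V-proximal block (rho 0.908 over 20 segments) and the middle block (rho 0.793), and was not seen within the C-proximal block (rho -0.188). The median segment had a share of 0.323% in the V-proximal block, 1.27% in the middle block and 3.22% in the C-proximal block. Summed from the V side, the midpoint of the Traj counts was reached at Traj17 in 5 libraries and at Traj18 in WT Tconv replicate 3. The mean locus rank weighted by counts was 42.6 ± 0.299 (SD, n = 3) with WT Tconv and 42.4 ± 0.204 (SD, n = 3) with HP1α KO Tconv, where Traj61 has rank 1 and Traj1 has rank 60. In distance, the average Traj count lay 20.6 ± 0.293 kb (SD, n = 3) and 20.8 ± 0.216 kb (SD, n = 3) before Trac. The groups overlapped in both measures.

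The complete heptamer was found directly before the annotated start of 0 of the 20 V-proximal, 8 of the 20 middle and 7 of the 20 C-proximal segments. A heptamer displaced against the annotated start was not counted. The V-proximal segment Traj48, for example, held the letters CACTGTG across its start and was scored with 0 matches. The comparison by heptamer thus rests on the annotated starts. Among middle segments, the median share was 0.973% with it and 1.37% for the 12 others, and among C-proximal segments it was 3.59% with it and 2.66% for the 13 others. The direction thus differed between these blocks, and the heptamer count had a rho of 0.312 with mean share over all 60 segments.

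Beyond the overall rise, single segments stood above or below their neighbours. Per annotated base, the mean count of each segment was set against the median of up to 4 neighbours, the nearest 2 on each side. The highest ratio was that of Traj56 at 3.32 (46.3 counts on average), and the lowest was that of Traj54 at 0.401. In the C-proximal block Traj6 was at 1.78 times its neighbours, and Traj5 and Traj4 beside it were at 0.590 and 0.652. In the middle block Traj29 and Traj25 were at 0.487 and 0.505, and Traj27 and Traj26, which lie between them, were at 1.72 and 1.70. Calculated in each group, 51 of the 60 segments lay on the same side of their neighbours in both groups, and 29 did so in all 6 libraries, among them the 9 segments named here. Those 9 were picked for their ratios in the mean of the same 6 libraries, so their common side is a description only. Traj6, for example, was at 1.90 times its neighbours with WT Tconv and 1.73 times with HP1α KO Tconv, and Traj25 at 0.531 and 0.476 times. The 2 extremes lay farther apart between groups. Traj56 was at 2.56 times with WT Tconv and 4.38 times with HP1α KO Tconv, and Traj54 at 0.513 and 0.294 times.

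The 9 segments annotated as pseudogenes together held 8.92% to 9.83% of the Traj counts. Traj14 had 579, 412 and 538 counts with WT Tconv and 482, 550 and 462 with HP1α KO Tconv, and was the segment with the seventh highest mean share. Its neighbours Traj15 and Traj13, both annotated genes, averaged 585 and 375 counts over the 6 libraries, against 504 for Traj14. Traj8 averaged 299 counts and Traj1, the last segment before Trac, averaged 339.5. The genomic sequence directly after the annotated end of Traj14, Traj8 and Traj1 held no GT donor, nor did that after the V-proximal pseudogenes Traj55 and Traj51. Traj14, Traj8, Traj1 and Traj51 were annotated at only 29 to 43 bases, against 55 to 66 for the annotated genes. A donor beyond such a short annotated end would not have been found, so its absence is not shown. Per annotated base, Traj14 had place 1 and Traj1 place 3 among the 60 segments, but their annotated lengths were only 34 and 29 bases in the annotation used here, which is later than that of the authors, so these 2 places rest on those lengths. The V-proximal pseudogenes Traj55 and Traj54 stood at 0.476 and 0.401 times their neighbours per base. Over all 9 pseudogenes the median ratio to the neighbours was 0.933 per base, with a range of 0.401 to 1.83, and over the 51 genes it was 1.03, with a range of 0.487 to 3.32.

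**Figure D3:**
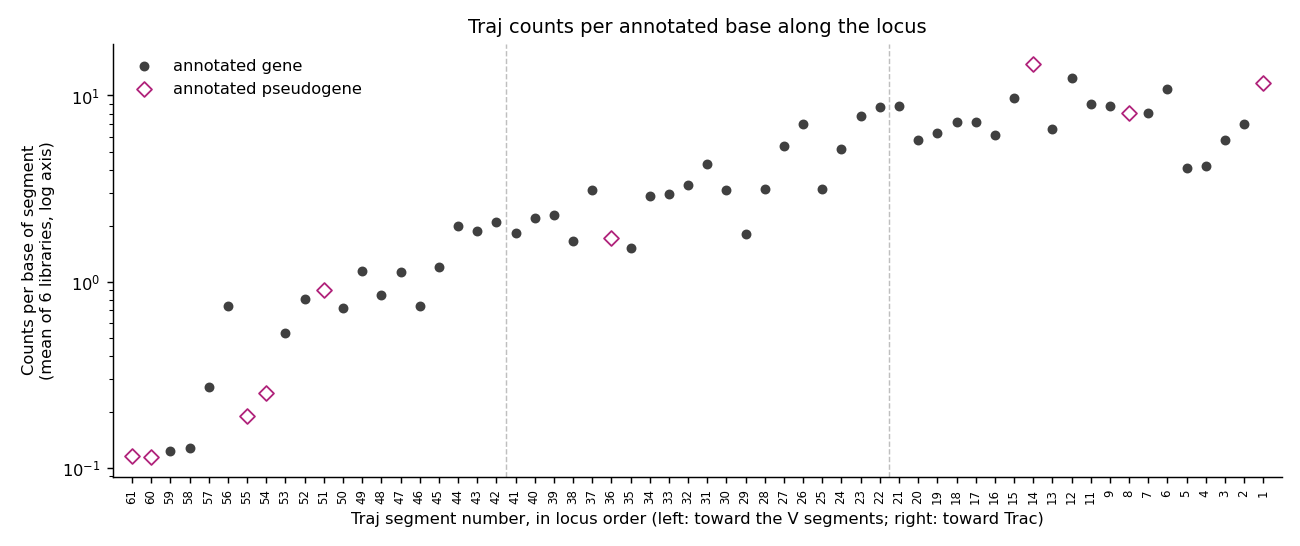
Counts per annotated base (mean of 6 libraries, log axis) of each Traj segment in locus order. Filled circles are annotated genes and open diamonds annotated pseudogenes, and dashed lines part the blocks. Values rise about from 0.116 at Traj61 to 14.8 at Traj14, and pseudogenes lie above (Traj14 and Traj1, at 1.82 and 1.83 times), near and below (Traj55 and Traj54) their neighbours.

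The 8 most used segments were Traj12, Traj6, Traj15, Traj11, Traj22, Traj9, Traj14 and Traj21, all but Traj22 in the C-proximal block. Traj12 took 4.91%, 5.74% and 4.94% of Traj counts with WT Tconv and 5.06%, 4.97% and 4.76% with HP1α KO Tconv. WT Tconv replicate 2 was the highest library, with a 95% Wilson interval of 5.36% to 6.14%, and the groups overlapped. The interval reflects counting alone, and nothing in the sources used here says that PCR copies were removed from the counts. Traj6 took 5.09%, 4.84% and 4.24% with WT Tconv and 4.63%, 4.84% and 4.75% with HP1α KO Tconv, so the lowest and the highest library were both of the WT Tconv group. Traj15 took 4.13%, 3.81% and 4.32% with WT Tconv and 4.66%, 3.51% and 4.14% with HP1α KO Tconv, and here the extremes were both KO Tconv libraries.

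Traj11 took 3.99%, 3.44% and 3.98% with WT Tconv and 3.81%, 3.61% and 3.54% with HP1α KO Tconv. Traj22 took 3.96%, 3.71% and 3.42% with WT Tconv and 3.63%, 3.52% and 3.70% with HP1α KO Tconv. For both segments the KO Tconv libraries lay within the range of the WT Tconv libraries. Traj9 took 4.04%, 3.54% and 3.44% with WT Tconv and 3.38%, 3.26% and 3.87% with HP1α KO Tconv. Traj14 took 3.97%, 2.94% and 3.55% with WT Tconv and 3.35%, 4.02% and 3.36% with HP1α KO Tconv. Both of these overlapped between groups as well. Traj21 took 3.41%, 2.79% and 3.38% with WT Tconv and 3.83%, 3.63% and 4.11% with HP1α KO Tconv, so that all 3 KO Tconv libraries lay above all WT Tconv libraries. In order, the means ran 5.06%, 4.73%, 4.10%, 3.73%, 3.66%, 3.59%, 3.53% and 3.52%, and each neighbouring pair in this order overlapped in its range over the 6 libraries.

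**Figure D4:**
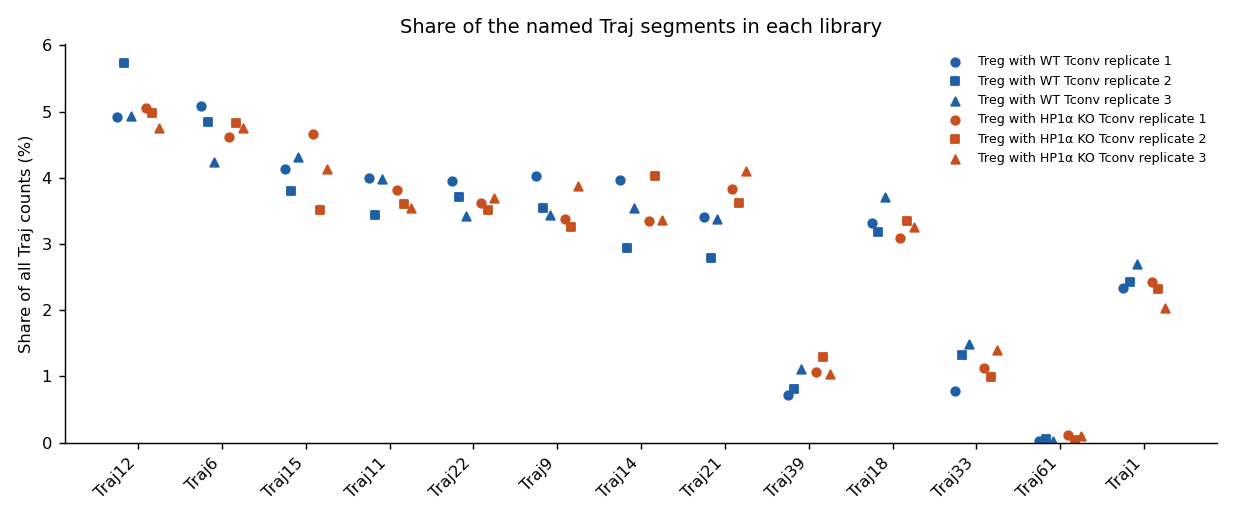
Share of all Traj counts (%) of the 8 most used segments and of Traj39, Traj18, Traj33, Traj61 and Traj1 in each of the 6 libraries. Colours are the groups and symbols are the replicates. Traj12 lies between 4.76% and 5.74%, and in Traj21 the HP1α KO Tconv libraries lie above the WT Tconv libraries.

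At the ends of the cluster, Traj61, the first segment and a pseudogene, had 3, 7 and 5 counts with WT Tconv and 17, 5 and 13 with HP1α KO Tconv, overlapping between groups. Its share of 0.0206% in WT Tconv replicate 1 had a Wilson interval of 0.00700% to 0.0605%. Traj60 had 7, 3 and 11 counts with WT Tconv and 14, 2 and 0 with HP1α KO Tconv. A count of 0 among the Traj counts of HP1α KO Tconv replicate 3 allows a share of up to 0.0218%. Traj1, at the other end, took 2.33%, 2.42% and 2.70% with WT Tconv and 2.43%, 2.33% and 2.04% with HP1α KO Tconv, with 280 to 410 counts in every library. Traj61 to Traj58 were too low for the test between groups.

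Traj18 joins with Trav11 in the invariant chain of NKT cells, and Traj33 joins with Trav1 in that of MAIT cells. Traj18 took 3.32%, 3.19% and 3.71% with WT Tconv and 3.09%, 3.34% and 3.25% with HP1α KO Tconv, and WT Tconv replicate 3 was the highest. Per base it was at 1.16 times its neighbours. Trav11 and its near-identical copy Trav11d, which share reads and were therefore summed, had 131, 271 and 255 counts with WT Tconv and 209, 224 and 158 with HP1α KO Tconv. Zbtb16, a factor that NKT and MAIT cells express, had 53 counts in WT Tconv replicate 3 and 4 to 15 in the others. Traj33 took 0.782%, 1.32% and 1.497% with WT Tconv and 1.12%, 0.987% and 1.40% with HP1α KO Tconv, with the lowest and highest libraries both in the WT Tconv group, and it was at 0.963 times its neighbours per base. Trav1 had 785 counts in WT Tconv replicate 3 and 198 to 459 in the others. The full marker lists summed to 5.44 to 6.83 CPM with WT Tconv and 4.42 to 5.74 CPM with HP1α KO Tconv for NKT cells (4 of 4 genes in the table), and to 21.8 to 24.5 CPM and 21.8 to 30.4 CPM for MAIT cells (3 of 3). Their part in the usage of Traj18 and Traj33 was not tested.

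Differential expression between Treg with HP1α KO Tconv and Treg with WT Tconv was tested with edgeR's quasi-likelihood test on all genes. Of the 60 segments, 56 passed the filter on low counts, and none had an adjusted p under 0.05, as was the case for 0 of 18321 genes tested (0%). At an unadjusted p under 0.05 there was 1 segment, Traj39, and 2656 of all genes (14.5%). With DESeq2, which gave an adjusted p to 32 segments, 0 segments and 526 of 12097 genes (4.35%) were under 0.05. The median log2 fold change of the segments was 0.08 (-0.01 over all genes tested), with 40 segments on the higher side and 16 on the lower side. The median absolute log2 fold change was 0.10 for the segments and 0.17 for all genes. Without WT Tconv replicate 3 the sides were 31 and 27 and the median was 0.02, and without HP1α KO Tconv replicate 3 they were 33 and 24 with a median of 0.01. The tilt was larger without WT Tconv replicate 1 (44 and 15, median 0.14), without WT Tconv replicate 2 (44 and 14, median 0.12) and without HP1α KO Tconv replicate 2 (46 and 11, median 0.14).

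**Figure D5:**
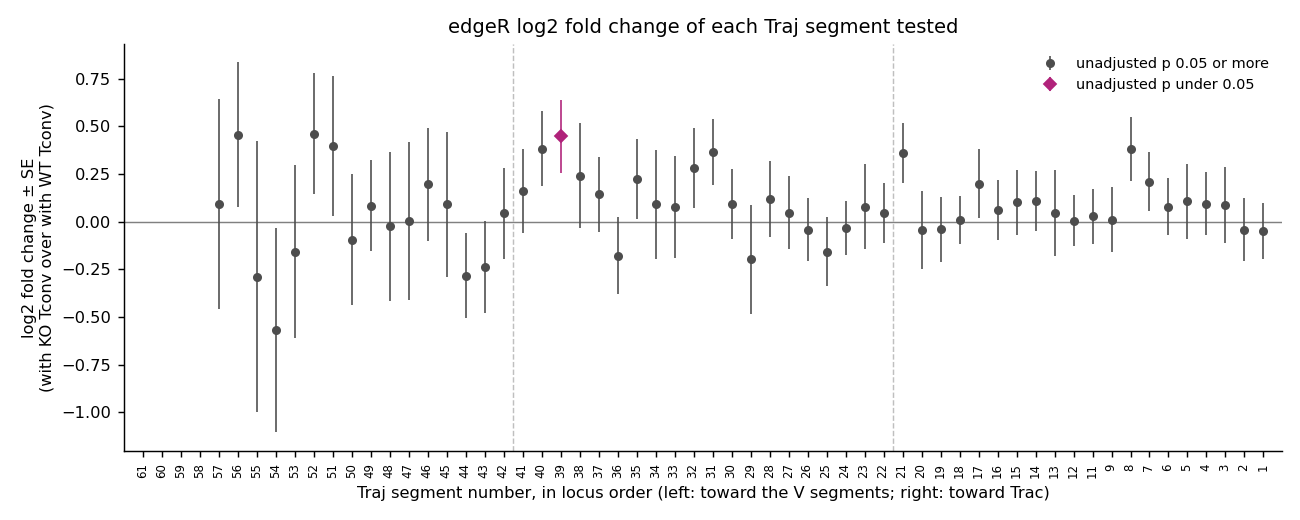
edgeR log2 fold change ± SE (vertical axis, positive where the HP1α KO Tconv group is higher, 3 libraries per group) of the 56 Traj segments tested, in locus order. The diamond is Traj39 at 0.45, the segment with an unadjusted p under 0.05. Values lie between -0.57 and 0.46 with wider errors at the V side, where counts are low.

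Traj39, a middle segment, had 1.10, 1.18 and 1.44 CPM with WT Tconv and 1.68, 1.78 and 1.62 CPM with HP1α KO Tconv. All 3 KO Tconv libraries lay above all WT Tconv libraries on this scale. The log2 fold change was 0.45 ± 0.19 (SE), with an unadjusted p of 0.0476 and an adjusted p of 0.341 by edgeR with Benjamini-Hochberg adjustment. As a share of Traj counts the groups overlapped, at 0.727%, 0.815% and 1.11% (WT Tconv) and 1.06%, 1.30% and 1.04% (HP1α KO Tconv). The unadjusted edgeR p was 0.0268 without WT Tconv replicate 3 and lay between 0.0706 and 0.129 when any other library was left out. It was also above 0.05 with DESeq2 (0.0874), with the replicate block (0.0850) and with both other filters on low counts (0.0748 and 0.0514), and it was under 0.05 with RLE normalization (0.0498) and with library totals only (0.0360).

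In TMM-scaled CPM, 4 of the 56 tested segments did not overlap between groups (23.0% of all genes tested did not), namely Traj40, Traj39, Traj31 and Traj8, all higher with HP1α KO Tconv. All 4 were picked from their values in these groups, Traj39 for its p-value and the other 3 for this separation, so the separation is a description. Traj40, next to Traj39, had 1.07, 1.11 and 1.36 CPM with WT Tconv and 1.46, 1.69 and 1.46 CPM with HP1α KO Tconv (log2 fold change 0.38 ± 0.20, SE). Traj31 had 1.93, 2.19 and 2.44 CPM with WT Tconv and 3.01, 2.46 and 2.96 CPM with HP1α KO Tconv (0.36 ± 0.17). Traj8, a pseudogene, had 2.52, 3.12 and 2.40 CPM with WT Tconv and 3.73, 3.14 and 3.602 CPM with HP1α KO Tconv (0.38 ± 0.17). The adjusted p of these 3 by edgeR was 0.424, 0.386 and 0.348.

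In the share of Traj counts, 7 of 60 segments did not overlap between groups, a smaller part than the 23.0% of all genes tested that did not overlap in CPM, so nothing is read from this count. Traj59, Traj58, Traj35, Traj21 and Traj8 were higher with HP1α KO Tconv, and Traj44 and Traj25 were lower. All were picked from their values in these groups, since the mean share that put Traj21 among the 8 most used includes the KO Tconv libraries, and in the WT Tconv libraries alone its mean (3.19%) was below those of Traj18 (3.40%), Traj2 (3.40%) and Traj23 (3.28%). Traj59 and Traj58 rested on 47 and 48 counts over the 6 libraries. Traj21 had means of 3.19 ± 0.347% (SD, n = 3) with WT Tconv and 3.85 ± 0.243% (SD, n = 3) with HP1α KO Tconv. Traj44 had means of 0.959 ± 0.0183% and 0.742 ± 0.119%, and Traj25 had means of 1.36 ± 0.0273% and 1.14 ± 0.0574%. No test of shares was made. The edgeR log2 fold change of Traj21 was 0.36 ± 0.16 (SE) with an adjusted p of 0.349. The fold changes had no trend along the locus, with a rho of -0.01 with locus rank, and medians of 0.02, 0.09 and 0.07 in the V-proximal, middle and C-proximal blocks.

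Pearson's r between the shares of any pair of libraries was 0.964 to 0.979 for the 6 pairs within a group and 0.962 to 0.983 for the 9 pairs between groups, over the 60 segments. These values are carried largely by the rise along the locus that all libraries share and say little of single segments, of which Traj34 ran from 0.714% to 1.59% and Traj47 from 0.292% to 0.691% between libraries. The effective number of segments, which is the number of equally used segments with the same Shannon entropy, was 40.6, 42.8 and 42.4 with WT Tconv and 42.2, 42.8 and 41.8 with HP1α KO Tconv. The lowest library, WT Tconv replicate 1, also had the largest C-proximal share. The groups overlapped, and the difference of the means was 0.336 against an SD of 1.20 among the WT Tconv libraries. With 1 library left out, this difference ran from -0.35 (without WT Tconv replicate 1) to 0.78 (without WT Tconv replicate 2).

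The spread of single segments between libraries was larger than counting error for most of them. The coefficient of variation (CV) of the share over the 6 libraries had a median of 15.2%, against a median of 7.43% from counting alone, and the ratio of both had a median of 1.92. It was lowest for Traj35 at 0.720 and highest for Traj23 at 3.40, and 2 of the 60 segments were under 1. The median CV was 30.0% in the V-proximal block, 15.2% in the middle block and 10.1% in the C-proximal block, where counts were highest. Traj23, with the highest ratio, took 3.38%, 3.17% and 3.30% with WT Tconv and 3.11%, 2.52% and 4.11% with HP1α KO Tconv, and the extremes were both KO Tconv libraries.

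The V segments and the β chain segments of the same libraries were set beside the J segments, taking those with a mean of 10 counts or more. The median CV of the share within the family was 13.9% for 56 Traj, 39.6% for 103 Trav, 18.0% for 24 Trbv and 12.2% for 14 Trbj segments. Relative to counting error the median ratio was 1.92 for Traj, 7.01 for Trav, 7.29 for Trbv and 2.57 for Trbj segments. Pearson's r between the libraries was 0.962 to 0.983 for Traj, 0.708 to 0.845 for Trav, 0.933 to 0.977 for Trbv and 0.858 to 0.959 for Trbj shares, so the Traj range overlapped that of Trbv and lay above those of Trav and Trbj. These families differ in depth, in segment length and in the reads shared between near-identical copies, and the difference between them was not tested. Groups did not overlap in the share for 5 of 56 Traj, 5 of 103 Trav, 5 of 24 Trbv and 2 of 14 Trbj segments, which is 8.93%, 4.85%, 20.8% and 14.3%, beside 23.0% of all genes on the CPM scale.

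Genes of V(D)J recombination and of the receptor complex were given by a list of 24 genes, of which 23 were in the table and 21 were tested. None had an adjusted p under 0.05 by edgeR, 4 had an unadjusted p under 0.05 (2 higher and 2 lower with HP1α KO Tconv, beside 14.5% of all genes), and DESeq2 called 1, Hmgb2 (beside 4.35% of all genes). These counts are close to those shares, and the values of the 4 genes are given as a description. Poll and Xrcc5, which act in the joining of broken DNA ends, had log2 fold changes of 0.36 ± 0.12 and 0.19 ± 0.07 (SE). Hmgb2 and Hmgb1, DNA-bending proteins that assist RAG and act widely in chromatin, had -0.26 ± 0.07 and -0.16 ± 0.06. The recombinase gene Rag1 had 516 to 880 counts, whereas Rag2, its partner, had 1 to 13 counts, and Dntt, which adds bases at joints, had 29 counts in WT Tconv replicate 3 and 0 to 10 in the others. Rag2 and Dntt were too low to be tested. Trac had a log2 fold change of 0.07 ± 0.09 (SE) with an adjusted p of 0.768 by edgeR.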

How the data were processed

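RNA was measured in 6 libraries of sorted Treg, made with a stranded total RNA kit and read from both ends. Per the study methods and the labels, the authors ran the nf-core RNA-seq workflow, in which adapters were cut, STAR placed the reads on GRCm39 and Salmon gave the gene values. What they deposited is a table of estimated counts, whole numbers without scaling, and every sample column was used. Salmon apportions a read that could belong to several genes, so segments with similar sequence may exchange reads.

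Segments were matched by gene identifier to GENCODE vM39 on the same assembly, for position, length and sequence (60 of 60 matched). Groups were taken from the labels. Shares were calculated among all Traj counts of a library. Differential expression was tested with edgeR 4.0.16 (TMM, filterByExpr, quasi-likelihood test, group as the only term, Benjamini-Hochberg adjustment over all genes), with DESeq2 1.42.0 as an alternative (R 4.3.3). The threshold was 0.05. The fit was checked on data made with known changes. Wilson intervals are at 95%, and a count of 0 was given an upper limit of 3 counts. Segments given by library were the 8 with the highest mean share, up to 6 with the smallest unadjusted p under 0.05, Traj18, Traj33 and the first and last segment. Blocks were set by number at 42 and above, 22 to 41 and 21 and below. The members and lists were chosen with earlier results of these data known. Alternatives were another normalization, other filters, a replicate block, shares per length, without pseudogenes or over better covered segments, and leaving out each library. The result of 1 marker list is not reported here.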

Additional observations from a re-analysis of the deposited data

How the results depend on the processing

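The number of Traj segments with an adjusted p under 0.05 was 0 under every setting run (DESeq2, RLE normalization, library totals only, both filters, the replicate block and each library left out). Samples share a replicate number but nothing in the labels pairs them, and the correlations of same-numbered deviations were -0.042, 0.182 and 0.117. With the replicate block 0 segments were called, and for Traj39 the log2 fold change was 0.46 and the unadjusted p 0.0850, against 0.0476 without the block. With DESeq2 the segment under an unadjusted p of 0.05 was Traj21 (0.0442) and not Traj39 (0.0874). Not every sample correlated best with its own number.

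The number of segments whose groups did not overlap in share, 7 of 60, was 5 to 8 with shares per length, without pseudogenes, with CPM over library totals or with at least 10 counts in every library, and 10 to 15 with 1 library left out, where smaller groups overlap less often by their size alone. It was 15 without WT Tconv replicate 3 and also without WT Tconv replicate 2, and 14 without WT Tconv replicate 1. It was 11 without HP1α KO Tconv replicate 1 and likewise without replicate 3 of that group.

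Log2 fold changes close to 0 changed sign when single libraries were left out, with ranges of -0.089 to 0.1107 for Traj12, -0.05037 to 0.1981 for Traj6, -0.02974 to 0.2553 for Traj15, -0.03337 to 0.1303 for Traj11, -0.06557 to 0.1618 for Traj22, -0.09532 to 0.1497 for Traj9, -0.0235 to 0.05327 for Traj18, -0.1082 to 0.2393 for Traj33 and -0.1334 to 0.0004953 for Traj1. The cause was not tested. The differences in summed level, effective number, weighted rank and block shares moved by less than the pooled SD of both groups under every setting run. For the block shares and the effective number this SD is set mainly by the WT Tconv libraries, and several moves were larger than the SD of the HP1α KO Tconv libraries alone (0.425 points for the C-proximal share, 0.128 points for the V-proximal share and 0.486 for the effective number). The differences of effective number, rank and both blocks changed sign when single libraries were left out, and that of the C-proximal block also without pseudogene segments (-0.123 points). Counts under 20 per library at Traj61 to Traj58 limit what can be said of the V-proximal end.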
